A study of Mus musculus with 8 samples.

Results

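The genes described here are Nnat, Peg3, Usp29, Peg10, Sgce, Mest, Snrpn, Plagl1, Impact and Ndn, 10 mouse genes that are known to be transcribed from the paternal allele. They were taken by symbol from a table of 50902 genes, and each of the 10 had 1 entry in it. These genes were selected on the same comparison that is described below, ESC + F/H-BAZ2Ar ΔTAM against ESC + F/H-BAZ2Ar WT, so their differences between the lines, and the counts of members past a threshold, are given as a description and are not read as tests. RNA was sequenced from E14 mouse embryonic stem cells (ESCs) grown without feeder cells in N2B27 medium with LIF and 2i, 2 kinase inhibitors that hold the cells in the naive state. Both lines carried a siRNA-resistant BAZ2A transgene tagged with Flag and HA, inserted with PiggyBac and selected with puromycin. It was full-length in ESC + F/H-BAZ2Ar WT, called the WT line here. In ESC + F/H-BAZ2Ar ΔTAM, called the ΔTAM line, it lacked TAM, the domain through which BAZ2A binds RNA. Both lines were transfected with siRNA against the endogenous Baz2a and collected 3 days later, so knockdown of the endogenous gene was common to both groups. The lines were grown from single cells and chosen by western blot, so that each may be 1 clone, and the effect of the TAM deletion and a difference between clones cannot be told apart. There were 4 libraries per line, and nothing says that they came from separate cultures, so the spread within a line may be technical.

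In genomic imprinting, DNA methylation set in an egg or sperm marks 1 parental copy of a control region, and nearby genes are then transcribed from 1 parental allele. After fertilisation the mark is kept by ZFP57 and ZFP445, zinc finger proteins that bind methylated copies and recruit TRIM28 and the histone methyltransferase SETDB1, and by DNMT1 with UHRF1, which copy methylation when DNA is replicated. For most paternally expressed genes the maternal copy carries the methylation. ESCs in 2i hold low DNA methylation, and imprinted genes are known to be unstable in such cultures. The values below add the reads of both parental alleles, and the allele of origin was not measured.

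Between 6560881 and 8662855 reads per library fell on genes, and 9000 genes had a mean of at least 0.1 RPKM, the level needed for a test on log2(RPKM + 0.1). RPKM is reads per kilobase per 1000000 reads, and the kilobases here are those of the whole genomic span, introns included. Baz2a, the gene targeted by the siRNA, had 9.95 to 11.2 RPKM in the WT line and 17.0 to 18.9 RPKM in the ΔTAM line. Its log2 fold change was 0.79 (SE 0.046, limma adjusted p = 3.39e-05), with no overlap. This difference in the amount of Baz2a RNA and the TAM deletion cannot be told apart in this design. The Baz2a reads can come from the transgene or from the endogenous gene, and the file does not separate them. Of 8 ESC markers, all had at least 10 reads on average, and their summed level was 375 to 385 RPKM in the WT line and 299 to 326 RPKM in the ΔTAM line. Most of that sum was Dppa5a, at 283 and 233 RPKM in the mean. By voom 5 of the 8 were lower, Tdgf1 by a log2 fold change of -1.06, Sox2 -0.42, Klf4 -0.39, Dppa5a -0.28 and Esrrb -0.23, while Pou5f1, Nanog and Zfp42 were between -0.05 and 0.02 and were not called. The part of this in the levels of the 10 genes was not tested. Fibroblast markers summed to at most 0.0332 RPKM in any library, with Col3a1, Dcn and Lum at 0.

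The start regions of the members are shown first because imprinting marks of several of these genes lie at or near their promoters and because 8 of the 10 genes were lower in the same line. Start sites for 7 of the 10 genes were found in RefSeq (build GRCm38.p6), in 12 windows. The set of RefSeq start sites used here held none under the symbols Peg10, Sgce and Impact, which does not mean that RefSeq lacks them. The 250 bases before the start are given 5′ to 3′ on the strand of the gene, in lower case. Capitals mark TGCCGC or its reverse complement GCGGCA, the hexamer that ZFP57 binds when it is methylated, or GCATGCG and its reverse complement CGCATGC, the core of the NRF1 motif. The second motif was chosen after the sequences had been read. Its strands overlap in CGCATGCG, so that such a stretch is 1 place in the DNA, and the different motifs did not overlap each other.
Nnat, chr2:157559828-157560077, plus strand: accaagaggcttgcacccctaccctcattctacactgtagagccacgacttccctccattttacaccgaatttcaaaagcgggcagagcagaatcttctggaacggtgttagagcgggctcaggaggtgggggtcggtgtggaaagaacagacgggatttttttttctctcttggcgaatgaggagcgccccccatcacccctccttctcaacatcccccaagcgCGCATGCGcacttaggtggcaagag
Ndn, chr7:62348027-62348276, plus strand: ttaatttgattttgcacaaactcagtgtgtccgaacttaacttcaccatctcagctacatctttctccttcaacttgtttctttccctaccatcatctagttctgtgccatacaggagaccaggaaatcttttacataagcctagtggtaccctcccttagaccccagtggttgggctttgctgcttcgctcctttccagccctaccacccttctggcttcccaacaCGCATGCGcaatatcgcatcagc
Snrpn, chr7:60140226-60140475, minus strand: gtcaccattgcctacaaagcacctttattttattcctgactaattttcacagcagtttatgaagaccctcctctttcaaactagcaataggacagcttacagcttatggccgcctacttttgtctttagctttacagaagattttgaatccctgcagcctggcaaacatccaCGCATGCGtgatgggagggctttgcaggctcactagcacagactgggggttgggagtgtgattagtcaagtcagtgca
Mest, chr6:30737800-30738049, plus strand: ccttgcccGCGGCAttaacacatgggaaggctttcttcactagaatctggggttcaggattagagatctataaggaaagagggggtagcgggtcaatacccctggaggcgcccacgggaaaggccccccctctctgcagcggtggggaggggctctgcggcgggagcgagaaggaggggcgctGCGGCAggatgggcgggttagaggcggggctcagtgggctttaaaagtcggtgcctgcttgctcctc
Plagl1, chr10:13090582-13090831, plus strand: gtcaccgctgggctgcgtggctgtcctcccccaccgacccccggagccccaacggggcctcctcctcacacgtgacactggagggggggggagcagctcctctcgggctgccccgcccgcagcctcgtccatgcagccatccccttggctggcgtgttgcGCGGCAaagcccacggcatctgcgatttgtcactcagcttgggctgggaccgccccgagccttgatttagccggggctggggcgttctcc
Peg3 to Usp29, chr7:6730420-6730582, plus strand: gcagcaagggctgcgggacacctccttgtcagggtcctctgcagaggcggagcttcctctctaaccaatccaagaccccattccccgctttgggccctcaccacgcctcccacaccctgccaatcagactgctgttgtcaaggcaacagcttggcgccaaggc

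GCATGCG was found before the starts of 3 members, Nnat, Ndn and Snrpn, the last in 3 of its 4 windows, which makes 5 of the 12 member windows. These 3 Snrpn windows resemble each other in sequence around the motif, so they are not separate finds. The other Snrpn window, chr7:60005200-60005449, is not printed above and held neither motif. Of all 32851 windows of this length, 3.02% held it, and nothing is read from this, since the motif was picked from the members' own sequences. TGCCGC was found in the windows of Mest, 2 times, and Plagl1, 1 time, in 3 of the 12 member windows (2 of them overlapping windows of Mest) and in 8.68% of all windows. A median window held 6 CpG dinucleotides. Plagl1 held 19, the CpG-rich start of Mest 14, Usp29 14, Nnat 12, Peg3 8 and Ndn 5, while the Snrpn windows held 2 to 4. The stretch of 163 bases is the DNA between the starts of Peg3 and Usp29, which are transcribed away from each other. It holds 5 CpGs and neither motif. A match is a description of the letters and not a binding site.

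Per length of exon, the members covered a wide range of expression. Levels between genes were compared as reads per exon kilobase per 1000000 gene reads, since RPKM per genomic span places genes with long introns too low. Plagl1, which encodes a zinc finger transcription factor, was highest, at 75.3 ± 3.63 (SD, n = 4) in the WT line and 60.6 ± 3.34 (SD, n = 4) in the ΔTAM line. In the WT line it was followed by Peg10 at 32.2 ± 0.552, Impact at 30.5 ± 0.416, Snrpn at 18.4 ± 1.50 and Peg3 at 9.48 ± 0.775 (SD, n = 4 each). Mest had 5.33 ± 0.364, Ndn 2.05 ± 0.162, Nnat 1.74 ± 0.490, Sgce 1.36 ± 0.190 and Usp29 0.142 ± 0.0433 on this scale. The library values of Ndn and Nnat overlapped, as did those of Nnat and Sgce, and no other neighbours in this order overlapped. In the ΔTAM line the order was the same except at 2 places. Impact, at 25.6 ± 0.904, stood above Peg10, at 22.2 ± 2.42, with overlapping libraries, and Nnat, at 2.91 ± 0.452, stood above Ndn, at 1.54 ± 0.323, without overlap (SD, n = 4 each). Nnat lay at percentile 61.0 of all genes with a mean above 0 on this scale, Plagl1 at 97.4 and Usp29 at 36.4.

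**Figure D1:**
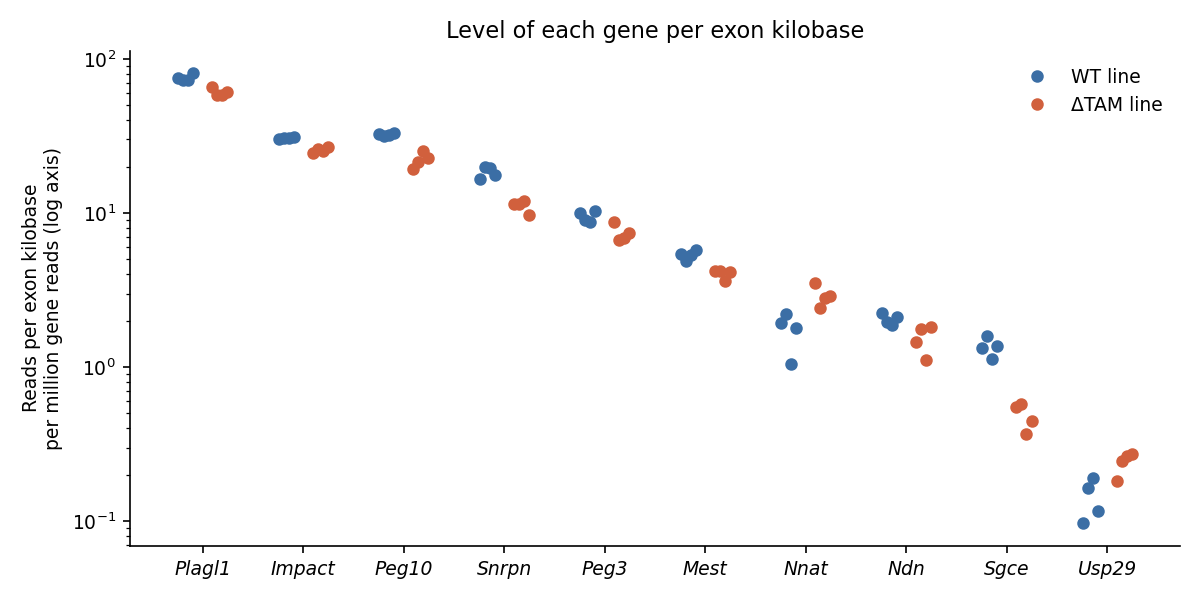
Reads per exon kilobase per 1000000 gene reads (log axis) for each of the 10 genes, with 1 point per library, in the WT line (blue) and the ΔTAM line (orange). The genes run from 68.0 for Plagl1 to 0.192 for Usp29 as means of all 8 libraries, and Nnat and Usp29 are the genes whose orange points lie mostly above the blue ones.

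Together the 10 genes took 1141 to 1235 reads per 1000000 gene reads in the WT line and 884 to 944 in the ΔTAM line. Between 49.7% and 54.0% of those reads were from Plagl1. In the mean, 8 of the 10 genes were lower in the ΔTAM line and 2, Nnat and Usp29, were higher. Libraries of the lines did not overlap in 8 genes, of which Nnat was higher and Peg10, Sgce, Mest, Snrpn, Plagl1, Impact and Ndn were lower. Of the 12655 genes whose libraries averaged 10 reads or more, 19.1% were above and 18.6% below without overlap, and nothing is read from the members' counts, since the contrast chose them. In bulk RNA, fewer cells that use a gene and less RNA per cell cannot be told apart.

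**Figure D2:**
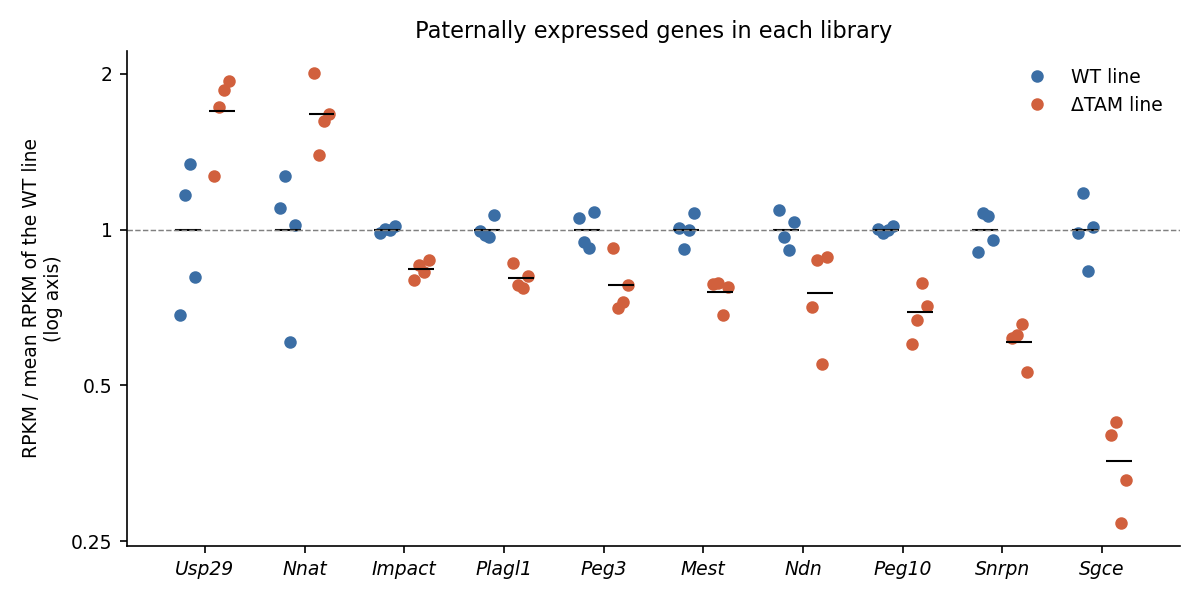
RPKM of each gene in each library divided by the gene's mean in the WT line (log axis), with the WT line in blue, the ΔTAM line in orange and black bars at the means. Sgce lies lowest in the ΔTAM line, Usp29 and Nnat lie above 1 in each of its libraries, and the lines overlap for Usp29 and Peg3.

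Nnat, which encodes neuronatin, a small membrane protein of the endoplasmic reticulum, was higher in the ΔTAM line. It lies on chromosome 2 from 157560078 to 157562522 on the plus strand of mm10, inside the span of Blcap, which is transcribed from the other strand and shares no exon bases with it. In the WT line Nnat had 0.214, 0.246, 0.118 and 0.198 RPKM. In the ΔTAM line it had 0.389, 0.271, 0.315 and 0.324 RPKM. Each ΔTAM library was above each WT library, and the lowest value was that of WT replicate 3. The reads behind these values were few, 14 to 31 in the WT line and 29 to 46 in the ΔTAM line. Counting alone would give a coefficient of variation of 20.4% in the WT line, where 28.2% was observed, and of 15.9% in the ΔTAM line, where 15.0% was observed. The fitted log2 fold change was 0.54 (standard error, SE, 0.149) on the scale of log2(RPKM + 0.1), where the pseudocount draws low values together, and 0.76 (SE 0.215) from limma voom on recovered reads.

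Blcap, whose span encloses Nnat and which is expressed from the maternal allele in brain, had 0.322 ± 0.0329 RPKM in the WT line and 0.388 ± 0.0298 RPKM in the ΔTAM line (SD, n = 4 each). Its log2 fold change was 0.21 (SE 0.066, limma adjusted p = 0.0385), with overlapping libraries. The adjusted p of Blcap ranged up to 0.0911 when libraries were left out and was above 0.05 without WT replicate 1, 3 or 4 and without ΔTAM replicate 1, 2 or 4. On the other side of Nnat, the nearest tested gene was Platr27, with a log2 fold change of -0.12 (SE 0.119, limma adjusted p = 0.467).

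The tested genes whose log2(RPKM + 0.1) followed that of Nnat most closely over the 8 libraries were Zfp367 (Pearson r = 0.976), 1700058P15Rik (0.975) and Arpc1b (0.968). They lie on chromosomes 13, 7 and 5 and were also higher in each ΔTAM library than in each WT library. The libraries fall into 2 lines, which these correlations share. The 6 other members that were tested had correlations with Nnat from -0.82 (Impact) to -0.45 (Peg3).

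Usp29, the other gene that was higher, encodes a ubiquitin-specific protease and lies on chromosome 7 from 6730578 to 6967219. Its start and that of Peg3 are 147 bp apart by the deposited coordinates. The reads of Usp29 were 13, 23, 25 and 16 in the WT line and 22, 29, 38 and 43 in the ΔTAM line. ΔTAM replicate 1 lay within the range of the WT line, and the other 3 ΔTAM libraries lay above it. At 0.00110 to 0.00217 RPKM in the WT line and 0.00206 to 0.00313 RPKM in the ΔTAM line, spread over a span of 236641 bases, it was below the filter of the main fit. With voom its log2 fold change was 0.80 (SE 0.233). Zim3 on the other strand covers 14.3% of the exon bases of Usp29, and the use of strand in the authors' counting is not stated in the sources used here, so the reads of these 2 genes may be mixed.

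Peg3, which encodes a large zinc finger protein and is read from the same start region in the opposite direction, was lower. It lies on chromosome 7 from 6703892 to 6730431. Its levels were 0.745, 0.670, 0.651 and 0.767 RPKM in the WT line and 0.652, 0.500, 0.513 and 0.553 RPKM in the ΔTAM line. The lines touched, with ΔTAM replicate 1 just above WT replicate 3, and the other 3 ΔTAM libraries lay below the WT line. The log2 fold change was -0.31 (SE 0.081), and -0.36 (SE 0.067) with voom. The reads of Peg3 per read of Usp29 were 75.6, 39.8, 33.7 and 65.6 in the WT line and 35.6, 20.0, 19.1 and 19.8 in the ΔTAM line. These ratios overlapped in 1 library of each line, and those of the WT line rest on 25 or fewer reads of Usp29 per library.

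The nearest tested genes around this pair were Zfp28 and Zfp264, both of which encode zinc finger proteins. Zfp28, 307 kb from Peg3, had 0.0934 RPKM in the WT line and 0.136 RPKM in the ΔTAM line as means. Its log2 fold change was 0.29 (SE 0.072, limma adjusted p = 0.0178), with no overlap. Zfp264 is itself paternally expressed and lies 10.0 kb beyond the end of Usp29. Its log2 fold change was 0.07 (SE 0.072, limma adjusted p = 0.508), smaller than the spread between libraries.

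Sgce showed the lowest ratio between the lines among the 10 genes. It encodes ε-sarcoglycan, a membrane protein that is mutated in myoclonus-dystonia, and lies on chromosome 6 from 4674350 to 4747207. Its reads were 105, 130, 87 and 112 in the WT line and 39, 40, 31 and 41 in the ΔTAM line. As RPKM these were 0.0290, 0.0346, 0.0245 and 0.0298 against 0.0118, 0.0125, 0.00798 and 0.00969, with every ΔTAM library below every WT library. Over 72857 bases of genomic span the gene was too low for the main fit, and the voom log2 fold change was -1.51 (SE 0.162). With each library left out in turn it stayed between -1.60 and -1.38.

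Peg10, derived from a retrotransposon and needed for the placenta, starts 99 bp from Sgce on the opposite strand. It lies on chromosome 6 from 4747306 to 4760517. It had 2.43, 2.38, 2.41 and 2.46 RPKM in the WT line and 1.45, 1.62, 1.90 and 1.72 RPKM in the ΔTAM line. The WT libraries were close together, with a coefficient of variation of 1.41% where counting alone would give 2.49%, while the ΔTAM libraries varied by 11.3% where counting would give 2.99%. All ΔTAM libraries lay below the WT line, by a log2 fold change of -0.51 (SE 0.071) in the main fit and -0.53 (SE 0.054) with voom.

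Both genes of this pair were lower in the mean, Sgce by more than Peg10. The reads of Peg10 per read of Sgce were 15.2, 12.4, 17.8 and 15.0 in the WT line. In the ΔTAM line they were 22.2, 23.4, 43.2 and 32.2. Every ΔTAM ratio was above every WT ratio, which was not tested, since the same contrast chose the genes.

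**Figure D3:**
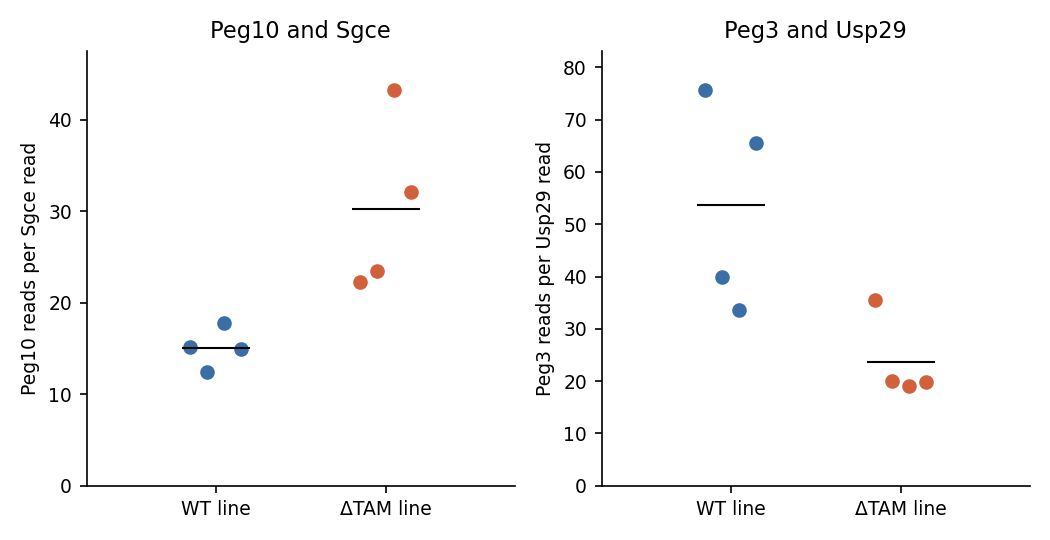
Reads of Peg10 per read of Sgce and reads of Peg3 per read of Usp29 in each library, with black bars at the mean of each line. The Peg10 to Sgce ratio is 12.4 to 17.8 in the WT line and 22.2 to 43.2 in the ΔTAM line, and the Peg3 to Usp29 ratio is 33.7 to 75.6 against 19.1 to 35.6.

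Farther along chromosome 6, Ppp1r9a and Pon2, imprinted genes of the same cluster that are expressed from the maternal allele in placenta, were too low for the main fit. With voom the log2 fold change of Ppp1r9a was -0.30 (SE 0.082, limma adjusted p = 0.00506) and that of Pon2 was 0.35 (SE 0.133, limma adjusted p = 0.0360). The call of Pon2 was lost whichever of the 8 libraries was left out, with an adjusted p of 0.0507 to 0.0762. Ppp1r9a and Pon2 were named after their values had been seen. The nearest genes that passed the filter of the main fit were Bet1, 587 kb before Sgce, with a log2 fold change of -0.11 (SE 0.069, limma adjusted p = 0.272), and Gm44250, 456 kb after Peg10, with -0.08 (SE 0.087, limma adjusted p = 0.503).

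Mest, also known as Peg1, encodes a protein of the α/β hydrolase fold and lies on the same chromosome from 30723547 to 30748465. It had 0.127, 0.115, 0.125 and 0.135 RPKM in the WT line and 0.0985, 0.0989, 0.0858 and 0.0974 RPKM in the ΔTAM line, with no overlap. These values rest on 108 to 174 reads. Its log2 fold change was -0.21 (SE 0.046) in the main fit and -0.40 (SE 0.094) with voom. Copg2, a coat protein gene on the other strand, overlaps 23.1% of the exon bases of Mest and is named for this overlap, outside the rule for named genes. With voom, Copg2 had a log2 fold change of -0.43 (SE 0.050, limma adjusted p = 3.67e-07), and without strand the reads of the shared bases cannot be told apart. The nearest tested gene before Mest, Tmem209 at 214 kb, was lower as well, from 0.643 to 0.485 RPKM in the mean. Its log2 fold change was -0.35 (SE 0.038, limma adjusted p = 4.23e-04). Mkln1, 650 kb after Mest, had -0.06 (SE 0.035, limma adjusted p = 0.224).

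Snrpn encodes SmN, a splicing protein used in brain in place of its relative SmB, and lies in the cluster of the Prader-Willi and Angelman syndromes, on chromosome 7 from 59982495 to 60140219. Its reads were 266, 328, 306 and 292 in the WT line and 165, 162, 207 and 182 in the ΔTAM line. Divided by its span of 157724 bases these gave 0.0339 to 0.0404 RPKM and 0.0199 to 0.0246 RPKM, with no overlap. The voom log2 fold change was -0.72 (SE 0.083). Snurf, which shares 216 exon bases with Snrpn on the same strand, was listed at 0 in each library, and Gm38393 shares 589, so that the split of reads among these genes is uncertain.

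Ndn, which encodes necdin, a MAGE family protein of postmitotic neurons, lies in the same cluster from 62346569 to 62350262. It had 0.332, 0.294, 0.278 and 0.315 RPKM in the WT line. In the ΔTAM line it had 0.216, 0.266, 0.168 and 0.270 RPKM. The ΔTAM libraries lay below the WT libraries, with the highest of them at 0.270 against a lowest WT value of 0.278, on 33 to 61 reads. The log2 fold change was -0.31 (SE 0.106) in the main fit and -0.43 (SE 0.166) with voom.

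The cluster held other paternally expressed genes that were not members. Snhg14, the long non-coding RNA that continues from Snrpn towards Ube3a, was named after its values had been seen. It had 0.00598 ± 0.00128 RPKM in the WT line and 0.00373 ± 0.000684 RPKM in the ΔTAM line (SD, n = 4 each), with overlapping libraries and a voom log2 fold change of -0.68 (SE 0.137, limma adjusted p = 3.13e-04). Mkrn3, a ring finger gene 67.3 kb from Ndn, had -0.02 (SE 0.100, limma adjusted p = 0.906). Ube3a, the ubiquitin ligase gene of Angelman syndrome, had -0.06 (SE 0.062, limma adjusted p = 0.490), smaller than the spread between libraries. Atp10a, a phospholipid transporter gene beyond Ube3a that has been described as maternally expressed, was too low for the main fit, with 32 to 44 reads in the WT line and 91 to 122 in the ΔTAM line. It was higher without overlap, with a voom log2 fold change of 1.51 (SE 0.143, limma adjusted p = 1.63e-08), the largest in size among the genes of this cluster named here. Peg12, a paternally expressed gene near Mkrn3, had -0.11 (SE 0.153, limma adjusted p = 0.610). Atp10a and Peg12 were also named after their values had been seen. The remaining neighbour, Gm10297, 613 kb from Snrpn, had 0.35 (SE 0.303, limma adjusted p = 0.407) on 1 to 8 reads per library.

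Plagl1 and Impact had the most precise differences and the smallest ones among the lower genes by voom. Plagl1 lies on chromosome 10 from 13060504 to 13131694, and it was read 2999 to 4817 times per library. It had 1.22, 1.20, 1.19 and 1.31 RPKM in the WT line and 1.06, 0.962, 0.951 and 1.0 RPKM in the ΔTAM line. The log2 fold change was -0.28 (SE 0.043), or -0.31 (SE 0.038) with voom. The genes on both sides, Sf3b5 at -0.10 (SE 0.115, limma adjusted p = 0.527) and Ltv1 at 0.05 (SE 0.041, limma adjusted p = 0.359), did not pass the test.

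Impact encodes an inhibitor of GCN2, the kinase that slows translation when amino acids are short, and lies on chromosome 18 from 12972252 to 12992948. Its GENCODE model starts farther out, at 12955852, so its level per exon kilobase was divided by the exons of a longer model. Its values were 1.11, 1.13, 1.12 and 1.14 RPKM in the WT line and 0.900, 0.962, 0.935 and 0.983 RPKM in the ΔTAM line. The WT libraries varied by 1.15%, less than the 2.92% that counting alone would give, and no ΔTAM library reached them. The log2 fold change was -0.23 (SE 0.030), or -0.25 (SE 0.041) with voom. The nearest tested gene before Impact was Npc1, a cholesterol transporter gene 736 kb away. Npc1 was higher in the ΔTAM line, with a log2 fold change of 0.32 (SE 0.042, limma adjusted p = 0.00103). Ss18, 1631 kb after Impact, had 0.05 (SE 0.026, limma adjusted p = 0.154). The 15 neighbours of the members were the nearest genes that passed the filter, at up to 1631 kb from the member. Of these, 3 were called higher and 1 lower, where 19.9% of all genes tested were called higher and 15.9% lower. Among the 3 was Blcap, whose call was lost in 6 of the 8 fits with a library left out.

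**Figure D4:**
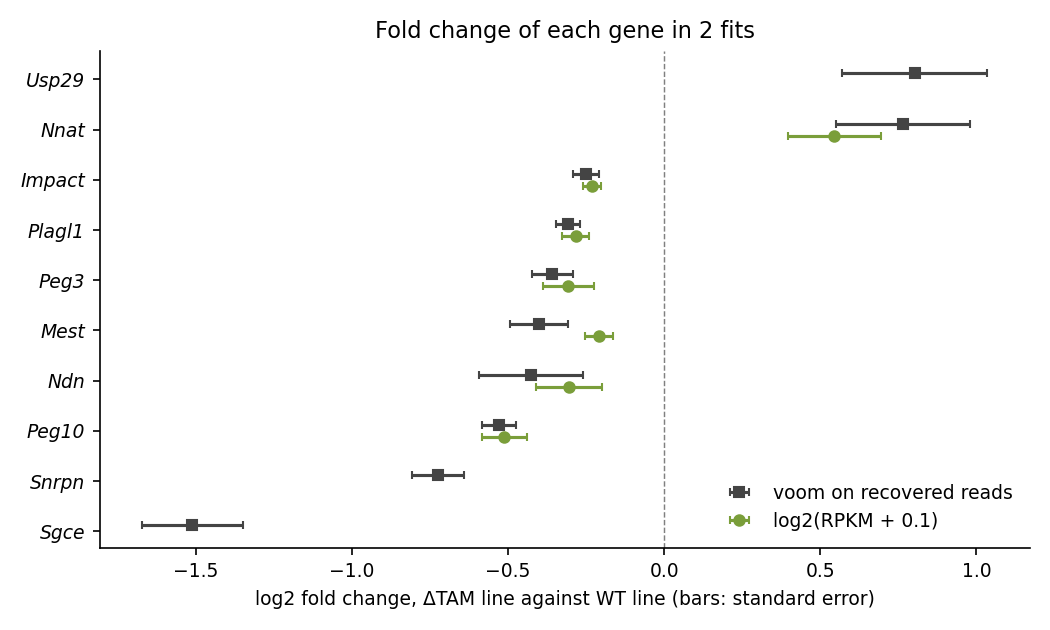
log2 fold change of each gene, ΔTAM line against WT line, with bars of 1 standard error, from limma voom on recovered reads (squares) and from limma on log2(RPKM + 0.1) (circles). Usp29 at 0.80 and Nnat at 0.76 stand above 0, and the other genes run down to -1.51 for Sgce. Usp29, Snrpn and Sgce have no circle because their mean was under 0.1 RPKM.

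Of the 7 members that reached 0.1 RPKM, 1 was called higher and 5 lower at an adjusted p under 0.05, where 19.9% of all 9000 genes were called higher and 15.9% lower. Ndn was the member not called. On the recovered reads all 10 members had at least 10 reads on average, and 2 were called higher and 8 lower, where 21.9% of the 12655 genes were called higher and 21.9% lower. With the thresholds of the study, which ask for a log2 fold change of 0.58 or more in size with an unadjusted p below 0.05, none of the 7 was past them with limma on log2(RPKM + 0.1), against 3.79% of all genes. By the same thresholds 4 of the 10 were past them with voom, Nnat, Usp29, Sgce and Snrpn, against 11.8% of all genes. The same contrast chose these genes, so nothing is read from these counts. The median log2 fold change of the members was -0.28 in the main fit and -0.38 with voom, where the median of all genes tested was 0.01 and -0.0027.

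The other paternally expressed genes called in the main fit were all higher in the ΔTAM line. Of 29 such genes listed, 28 were in the table and 9 reached 0.1 RPKM, of which 4 were called higher and none lower by limma, also at an unadjusted p under 0.05 where again 4 were higher and 0 lower. By adjusted p, 19.9% of all genes tested were called higher and 15.9% lower. The largest difference was that of Slc38a4, an amino acid transporter gene that is imprinted in placenta and early embryo, with 0.141, 0.123, 0.132 and 0.127 RPKM in the WT line and 0.657, 0.625, 0.631 and 0.632 RPKM in the ΔTAM line. Its log2 fold change was 1.67 (SE 0.032, limma adjusted p = 4.16e-07), higher in 4 of 4 ΔTAM libraries. Zrsr1, a gene for a splicing factor relative, followed with 0.33 (SE 0.079, limma adjusted p = 0.0137). Jade1 had 0.28 (SE 0.029, limma adjusted p = 3.48e-04) and Gab1 0.11 (SE 0.029, limma adjusted p = 0.0258). The call of Gab1 was lost without WT replicate 2, 3 or 4 and without ΔTAM replicate 2, 3 or 4, with an adjusted p of up to 0.0661. With voom, 18 of the list had enough reads, and 7 were called higher and 4 lower, where 21.9% of all genes were called higher and 21.9% lower. The median of the list was 0.12 in the main fit and 0.07 with voom.

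Genes of the opposite parental class were called in both directions. Of 40 maternally expressed genes, 13 reached 0.1 RPKM, and 2 were called higher and 4 lower, with a median of -0.05. Of all genes tested, 19.9% were called higher and 15.9% lower. Meg3 and Rian, long non-coding RNAs of 1 cluster on chromosome 12, were lower. Meg3 had 2.92, 2.76, 2.75 and 3.09 RPKM in the WT line and 2.24, 1.82, 1.88 and 2.00 RPKM in the ΔTAM line, with a log2 fold change of -0.52 (SE 0.067, limma adjusted p = 9.79e-04). Rian had -0.49 (SE 0.055, limma adjusted p = 4.63e-04), and Cd81, a tetraspanin gene, had -0.38 (SE 0.038, limma adjusted p = 2.93e-04). Blcap, described with Nnat, was among those called higher. Each of the 2 higher calls, and 1 of the 4 lower ones, was kept in only 2 of the 8 fits with a library left out. With voom, 25 of the list had enough reads, and 6 were called higher and 7 lower, where 21.9% of all genes were called higher and 21.9% lower.

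Among 9 factors that keep imprints, 5 were called higher and 1 lower, where 19.9% of all genes tested were called higher and 15.9% lower. The call of Uhrf1 as higher, named here after its values had been seen, was kept in 2 of the 8 fits with a library left out. Dppa3, which protects methylation in the zygote and hinders UHRF1 when it is abundant, had 0.339, 0.347, 0.271 and 0.316 RPKM in the WT line and 1.23, 1.35, 1.50 and 1.33 RPKM in the ΔTAM line. Its log2 fold change was 1.80 (SE 0.075, limma adjusted p = 8.94e-06). Setdb1 and Trim28 were higher by 0.20 (SE 0.031, limma adjusted p = 0.00204) and 0.19 (SE 0.046, limma adjusted p = 0.0148). Zfp57 was lower by a log2 fold change of -0.18 (SE 0.028, limma adjusted p = 0.00204), with every ΔTAM library below every WT library. The part of these factors in the differences of the members was not tested.

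**Figure D5:**
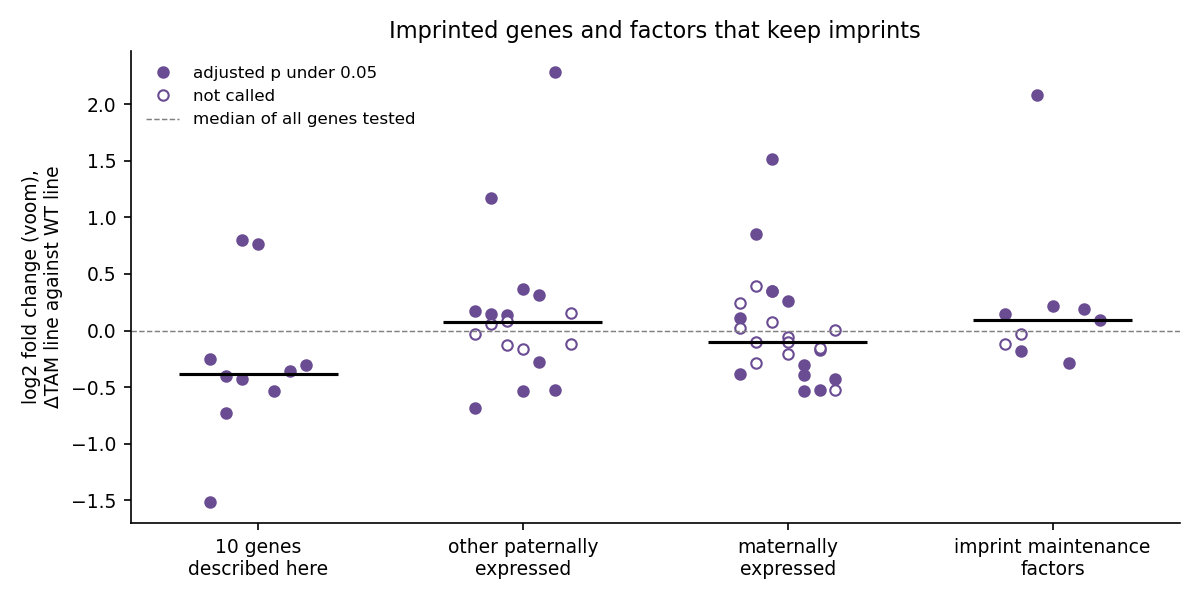
log2 fold change with voom, ΔTAM line against WT line, for the 10 genes described here, 18 other paternally expressed genes, 25 maternally expressed genes and 9 factors that keep imprints. Filled points had an adjusted p under 0.05, black bars are medians of each list and the dashed line is the median of all genes tested. Sgce is the lowest point of the figure at -1.51, and Slc38a4 the highest at 2.28.

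Several members are known for high expression in neurons, and markers of neural cells moved between the lines. The 9 neural markers summed to 0.764 to 0.976 RPKM in the WT line and 0.458 to 0.574 RPKM in the ΔTAM line, and Dcx was at 0 in each library. Of the 4 with at least 10 reads, 3 were lower by voom, among them Nes, a marker of neural progenitors, with -0.97 (SE 0.103, limma adjusted p = 9.45e-08). Nes, from 0.461 to 0.232 RPKM in the mean, made up most of the difference in the sum. The fourth, Tubb3, a neuronal tubulin gene, had 0.27 (SE 0.115, limma adjusted p = 0.0579), in the other direction. The 7 markers of extraembryonic endoderm summed to 0.0183 to 0.0441 RPKM in the WT line and 0.0354 to 0.0596 RPKM in the ΔTAM line, with Afp at 0. The 6 trophoblast markers summed to 0.255 to 0.335 RPKM and 0.272 to 0.435 RPKM, with Tpbpa at 0. Cdx2, a trophoblast transcription factor gene, had a voom log2 fold change of 0.39 (SE 0.143, limma adjusted p = 0.0321), and was called in 3 of the 8 fits with a library left out. Plet1, another trophoblast marker, had -0.71 (SE 0.293, limma adjusted p = 0.0550), in the other direction, and Krt7 had 0.57 (SE 0.276, limma adjusted p = 0.100). Nes, Tubb3, Cdx2, Plet1, Krt7 and the ESC markers were named after their values had been seen. The part of such cells, if any, in the levels of Nnat, Ndn, Snrpn or Peg10 was not tested.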

How the data were processed

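Poly(A) RNA of 8 libraries, 4 per line, was measured by stranded mRNA sequencing. According to the methods and the submitters' processing notes, the authors removed ribosomal RNA reads, trimmed the others with Trimmomatic (0.36 in the notes, another version in the methods), mapped them with STAR to mm10, counted exon coverage per gene with their own pipeline and deposited RPKM per library, without pooling. The annotation release and the use of strand and of multiply mapped reads are not given in the sources used here. RPKM times genomic span came in whole multiples of 1 step per library, within 0.05 for 99.6% of values, so that reads per gene were recovered. Of 51288 entries, 386 repeats of 231 symbols were set aside. Exon lengths came from GENCODE, by symbol, for 94.3% of genes.

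The main fit was limma 3.58.1 (R 4.3.3), applied to log2(RPKM + 0.1) with an eBayes trend, no covariates and Benjamini-Hochberg adjustment over the 9000 genes that averaged 0.1 RPKM or more. Fold changes are on the log2(RPKM + 0.1) scale, which understates low genes. The other fit was limma voom on recovered reads for 12655 genes that averaged 10 reads or more, scaled by median ratios. Both were tested on simulated data, with larger changes than most members had and at levels above those of several members, so that test does not cover them. Read intervals cover counting error only. Python 3.11.15 made tables and figures. The alternatives were other pseudocounts, filters, scalings, a replicate block and leaving out each library.

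The members and lists were chosen with earlier results of these data known. Named were all members, up to 4 genes of each other list with an adjusted p under 0.05 and the largest fold changes, the nearest tested gene on either side of each member, and the 3 genes most correlated with Nnat. Genes outside this rule are said to be so in the Results, with some exceptions. These are Baz2a, the siRNA target, the cell markers named for being at 0 in each library, and Zim3, Snurf and Gm38393. The last 3 are named only because they overlap a member.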

Additional observations from a re-analysis of the deposited data

Results flagged for a closer look

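Of the 20 sets of 4 libraries formed by the members and lines, 1 held a library that stood apart from the other 3 by Dixon's criterion. Mest in ΔTAM replicate 3 had 0.0858 RPKM, and its gap to the nearest library was 0.885 of the range of the line, above the limit for 4 libraries. Chance gives such a gap in about 1 in 20 sets. It lay below the other 3 ΔTAM libraries, which were themselves below the WT line, and the lines did not overlap with it or without it.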

How the results depend on the processing

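Members' fold changes kept their direction in each alternative run. Across the members and alternatives, 124 values stayed on the same side of the threshold, 10 lost it and 4 gained it. Nnat lost its call without a filter and without ΔTAM replicate 1, 3 or 4 (0.47, 0.55 and 0.54 on the log2 scale), and Peg3 without a filter and without WT replicate 1 or 4 or ΔTAM replicate 2 or 3 (-0.29 to -0.27), so the count of members called higher was 0 to 1 with a library left out. Usp29, called with voom, was not called on log2(RPKM + 0.1) without a filter (0.016). Ndn was called with a pseudocount of 1 RPKM (-0.086), with voom (-0.43) and without ΔTAM replicate 2 or 4 (-0.36 and -0.37), but with voom in 3 of the 8 fits that leave out a library. A filter of 1 RPKM left 590 genes called higher and 399 lower, with members at 0 and 3, other paternally expressed genes called higher at 1, maternally expressed genes called higher at 0 and factors called higher at 3. Without a filter, 0 members were called higher, 1 other paternally expressed gene lower and 4 maternally expressed genes higher. With voom, 2773 genes were called higher and 2777 lower, with members at 2 and 8, other paternally expressed genes at 7 and 4, maternally expressed genes at 6 and 7, and factors called lower at 2. Quantile normalization gave 1 maternally expressed gene higher and 2 factors lower, and a pseudocount of 1 RPKM 2 factors lower. Leaving out libraries gave 0 to 2 maternally expressed genes higher and 1 to 2 factors lower. The cause of these changes beyond the number of genes tested was not tested. Same-numbered libraries of the lines had low correlations between their deviations, 0.024 to 0.062, but 3 of 4 WT libraries correlated best with their own number. Nothing in the labels says that the numbers are pairs, and the main fit did not take them as such. Whether same-numbered libraries shared a batch was not tested. A fit with the replicate number as a block called 1557 genes higher and 1239 lower, with members at 1 and 5 and 1 maternally expressed gene higher. Nnat and Usp29 had the fewest reads as means of all 8 libraries, at 13 to 46 per library. Sgce was about as low in the ΔTAM line, with 31 to 41 reads.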
